A study of Homo sapiens with 2 samples.

Results

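The probes described here are those for 8 cytokine genes, namely TNF, IL6, IL10, IL12B, IL23A, EBI3, CSF2 and CSF3. They were picked by probe name, whatever their signal, and all 8 of them were present among the 75149 probes of the microarray, each with 2 spots. The gene names come from the manufacturer's catalogue as supplied with the choice of probes. The deposited files pair no probe with a gene, so neither these names nor monocyte markers could be checked against the data. RNA came from THP-1 cells, a human monocytic leukaemia cell line grown in serum-containing medium with β-mercaptoethanol. The Con array was hybridized with control THP-1 cells and the LPS array with THP-1 cells stimulated with lipopolysaccharide (LPS), which Gram-negative bacteria carry in their outer membrane. Per the labels the treatment lasted 48 h and the control received DMSO, whereas the paper calls these cells untreated, and the LPS dose is not given in the sources used here. With 1 array per condition there is no biological replicate and no test was made. Every error given is technical. The ± of a difference combines the SD between spots of both arrays, and errors from the scanner software are named as such.

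When LPS binds the TLR4 receptor complex on monocytes and macrophages, signalling through NF-kB and MAP kinases switches on the transcription of cytokine genes. TNF and IL6 are classical early products of this response, and IL10 acts back on the cell to restrain it. The chains encoded by IL12B, IL23A and EBI3 are parts of the 2-chain cytokines of the IL-12 family, and CSF2 and CSF3 encode growth factors for granulocytes and macrophages. Many of these messages are short-lived in the cell.

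Detection of a probe required that the scanner software had set its flag for signals well above background at most of the spots kept. The level of a probe is the mean log2 intensity of its spots, and a difference is LPS minus Con after the 75th percentile of each array had been subtracted, which lowered LPS relative to Con by 0.13 (log2). Of the 16 spots of the cytokine probes on each array, 0 were saturated and 0 carried an outlier flag. The Con array detected 7 of the 8 probes and the LPS array 7, with 6 detected on both. For the whole array, detection reached 91.7% of probes with Con and 82.4% with LPS. Across all probes the difference had a median of -0.13 (log2).

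At a threshold of 2-fold, 2 of the 8 probes were higher on the LPS array, IL6 and CSF3, and 2 were lower, CSF2 and IL12B, while TNF, IL10, IL23A and EBI3 differed by less. Of all 69292 probes with a fold, 0.784% were higher and 16.6% lower at this threshold, and of the 32242 with names in A_, as these have, 1.13% were higher and 12.0% lower. The folds for CSF3 and IL12B are bounds against the lowest detected signal of the dim array, because each was well above background on one array alone. These bounds depend on the setting. The median difference over the 8 probes was 0.09 (log2). Con and LPS lay side by side in 4 of the genes and far apart in the others, as the plot of spot intensities shows.

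**Figure D1:**
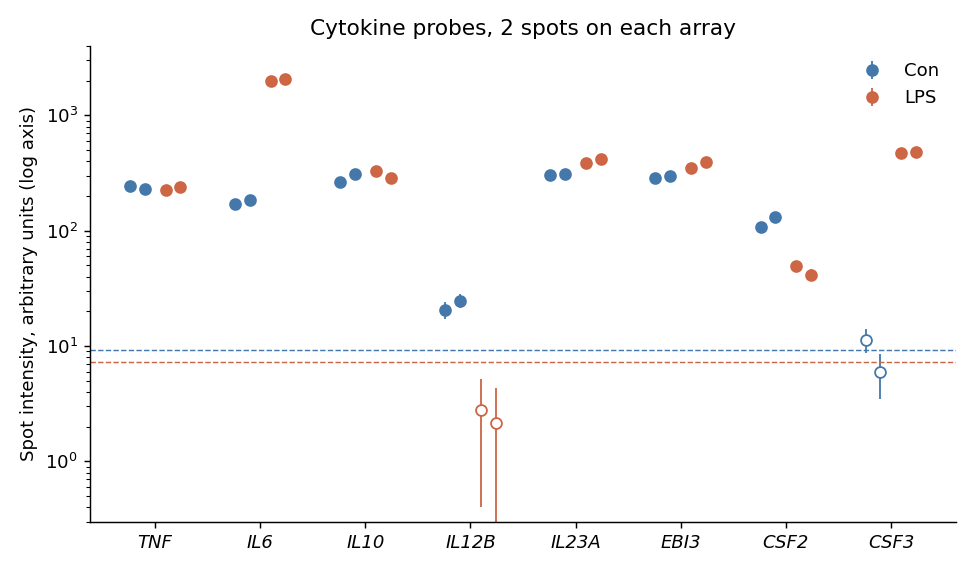
Scanner intensity (arbitrary units, log axis, not scaled between arrays) of the 2 spots of each cytokine probe on the Con array (blue) and the LPS array (orange), with bars for the scanner software's error of the spot. Open circles are spots not well above background, dashed lines mark the lowest signal of a detected probe (9.23 on Con and 7.23 on LPS), and the lower bar of the second LPS spot of IL12B runs off the axis because its error, 2.16, exceeds its intensity, 2.15. IL6 and CSF3 lie far higher on LPS, CSF2 and IL12B lower, and the other 4 probes nearly level.

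IL6 encodes a cytokine that drives the acute-phase response and acts through a receptor whose signalling chain is shared with related cytokines. Its probe, A_23_P71037, had spot intensities of 170 and 184 on the Con array and 1972 and 2062 on the LPS array. Both LPS spots lay far above both Con spots. The difference was 3.38 ± 0.09 (log2, SD over the spots, 2 spots on each array), a ratio of 10.4, and the spot at each of the 2 positions gave nearly the same value, 3.40 and 3.35. A difference at least this large was found for 21 of the 69292 probes with a fold, IL6 included. Among the 6 cytokine probes detected on both arrays, IL6 had the largest difference.

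TNF, the cytokine that gives the tumour necrosis factor family its name, was close to level. Its probe, A_23_P376488, had intensities of 246 and 229 on the Con array and 224 and 238 on the LPS array. As scanned, these ranges overlap. After scaling, both LPS spots lay below both Con spots. The difference was then -0.17 ± 0.09 (log2), or 1.13-fold lower on LPS, and ran from -0.32 to -0.04 over 12 alternatives. The scanner software's own error of this difference was 0.14, and 29510 of the 69292 probes were at least as far on the lower side.

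IL10 encodes the cytokine that dampens macrophage activation. Its probe, A_23_P126735, had intensities of 267 and 313 on the Con array and 332 and 287 on the LPS array. The spots of the arrays interleave, and the spot positions gave differences of opposite sign, 0.18 and -0.26. The mean difference, -0.04 ± 0.22 (log2), was smaller than the spread between spots. A change in IL10 was thus not detectable at this precision.

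The promoter of IL6 is shown beside that of TNF because these classical LPS-response genes gave unlike differences, 10.4-fold higher and 1.13-fold lower. RefSeq promoter windows (GRCh38.p14) were matched by gene symbol for 7 of the 8 genes, and the 250 bases before the transcription start were searched on both strands for the NF-kB consensus, for the AP-1 motif TGANTCA, the C/EBP motif TTNNGNAA and the TATA box TATAAA. Capitals mark every match, the sequences run 5′ to 3′ on the gene's strand, and positions count back from the start. The IL6 window, chr7:22726950-22727199 on the plus strand, held an NF-kB match from -73 to -64 and a C/EBP match from -155 to -148. The TNF window, chr6:31575315-31575564 on the plus strand, held a C/EBP match from -185 to -178 and a TATA box from -29 to -24. It held no match to the NF-kB pattern searched, though its stretch gggtttctcc is close to that pattern.
IL6: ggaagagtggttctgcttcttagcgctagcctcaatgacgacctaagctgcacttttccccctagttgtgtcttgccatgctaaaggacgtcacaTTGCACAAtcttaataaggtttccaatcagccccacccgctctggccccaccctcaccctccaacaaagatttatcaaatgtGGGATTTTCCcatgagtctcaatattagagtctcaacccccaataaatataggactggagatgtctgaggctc
TNF: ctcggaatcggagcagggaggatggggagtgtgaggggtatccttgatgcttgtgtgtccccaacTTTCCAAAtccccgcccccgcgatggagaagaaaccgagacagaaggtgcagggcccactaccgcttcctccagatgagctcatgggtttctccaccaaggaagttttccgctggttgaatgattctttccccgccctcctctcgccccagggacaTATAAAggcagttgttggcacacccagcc

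The NF-kB consensus was found in 9.96% of all 35116 windows of this length, AP-1 in 6.57%, C/EBP in 33.2% and the TATA box in 10.7%. Of the 7 genes with a window, 3 held the NF-kB consensus (IL6, IL23A and EBI3) and 3 the AP-1 motif (IL10 in 1 of its 3 windows, IL23A and EBI3). The C/EBP motif was held by 2 (TNF and IL6) and the TATA box by 3 (TNF, IL10 in 1 of its 3 windows, and IL23A). Counted by window, as the shares are, these were 3, 3, 2 and 3 of 9. These are letters in a short window and say nothing about which factor was bound. A gene without a match may hold sites outside the window, or sites inside it that depart from the pattern searched. NF-kB matches stood in the promoter of a gene that was 10.4 times higher on LPS and in those of a pair that differed by less than 2-fold. A link between the matches and the differences was not tested.

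IL23A encodes the chain that is joined to the IL12B product in IL-23, a cytokine that sustains a class of helper T cells. Its probe, A_23_P76078, had intensities of 304 and 307 on the Con array and 386 and 422 on the LPS array. Both LPS spots were above both Con spots. The difference was 0.27 ± 0.09 (log2), a ratio of 1.20, against an error of 0.14 by the scanner software. Of the 69292 probes, 7378 were at least as far on the higher side. The IL23A window, chr12:56338634-56338883 on the plus strand, is shown because it holds the NF-kB and AP-1 matches close together, from -95 to -86 and from -77 to -71, followed by a TATA box from -62 to -57.
IL23A: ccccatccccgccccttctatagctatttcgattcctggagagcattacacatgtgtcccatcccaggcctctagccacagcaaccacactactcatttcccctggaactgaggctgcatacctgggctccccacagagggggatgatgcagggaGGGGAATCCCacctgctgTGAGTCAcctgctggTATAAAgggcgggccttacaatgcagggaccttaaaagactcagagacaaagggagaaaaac

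EBI3 encodes the chain that, with a partner, forms IL-27. Its probe, A_23_P119478, had intensities of 286 and 298 on the Con array and 351 and 394 on the LPS array. Here too the LPS spots were both above the Con spots. The difference was 0.22 ± 0.13 (log2), a ratio of 1.16, and 9565 probes were at least as far on the higher side. Both differences moved with the scaling. The IL23A and EBI3 differences ranged from 0.12 to 0.40 and from 0.07 to 0.35 (log2) over the alternatives, from scaling by control probes to no scaling, and all were above 0.

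IL12B encodes the chain shared by IL-12 and IL-23. Its probe, A_23_P7560, had intensities of 20.6 and 24.7 on the Con array, well above background, and of 2.81 and 2.15 on the LPS array, which were not. On LPS, the background-subtracted signal of one spot was 2.67 and that of the other -2.04, so that the scanner software's error, 2.40 and 2.16, was about as large as the signals. Against the lowest detected signal of the LPS array, IL12B was at least 3.42-fold lower on LPS. Probes this dim were lower on the LPS array as a whole. All probes were split by mean signal into 10 groups of about the same size, and IL12B fell in the dimmest. The median difference there, taken without bounds, was -1.84 (log2). The IL12B difference without a bound, -3.33 ± 0.33 with a scanner software error of 0.97, lay below that median. It was within the 5th to 95th percentile range of the group, -3.52 to -0.08. The LPS spot with an intensity of 2.15 is the one whose background-subtracted signal was negative. In this group 2243 of the 2396 probes with a fold were called lower and 0 higher. The group ends at a mean intensity of 8.98, under the lowest detected Con signal of 9.23. A probe in it that was detected on Con could thus only be lower on LPS, so the detection filter in part sets this count. The bound moved to 1.14-fold under quantile normalization, 1.30-fold under cyclic loess, 1.29-fold under the normexp background correction and 1.52-fold with raw spot intensities, all below the threshold, and to 2.31-fold with the median over spots. The part of this shift of dim probes in the IL12B difference was not tested.

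CSF3 encodes granulocyte colony-stimulating factor, which drives neutrophil production. Its probe, A_23_P501754, had intensities of 11.4 and 5.96 on the Con array, not well above background, and of 473 and 484 on the LPS array. The LPS spots nearly coincided, with an SD of 0.02 (log2), while the SD of the Con spots was 0.66. Taken against the lowest detected signal of the Con array, 9.23, the bound for CSF3 was 47.2-fold higher on LPS in the main setting. One Con spot, at 11.4, lay above that signal without being well above background. The measured difference was 5.73 ± 0.66 (log2), with 5.25 at one spot position and 6.21 at the other. A value at least as high as the bound, 5.56, was reached by 3 of the 69292 probes with a fold, CSF3 included, and by no other of the 7515 probes in its group of like signal, where the median difference was -0.27. The size depended on the processing. The bound was 36.2-fold with the median over spots and 42.7-fold with scaling by control probes, but 63.3-fold under cyclic loess and 97.1-fold under quantile normalization. It was 7.80-fold with normexp and 13.9-fold with raw spot intensities, which shrink the folds of dim probes by construction. All of these were past the threshold.

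CSF2 encodes granulocyte-macrophage colony-stimulating factor and went the other way. Its probe, A_23_P133408, had intensities of 108 and 131 on the Con array and 49.5 and 41.7 on the LPS array, all well above background. Both LPS spots were below both Con spots. The difference was -1.52 ± 0.27 (log2), 2.88-fold lower on LPS, with -1.26 at one spot position and -1.79 at the other. CSF2 and CSF3 fell in the same group of like signal, and in it 373 of the 7515 probes were at least as far on the lower side as CSF2, with the 5th percentile at -1.52. With normexp, whose offset of 50 shrinks the folds of dim probes, the CSF2 difference was -0.86, under the threshold. The part of the shift of dim probes in the CSF2 difference was not tested. The CSF2 window, chr5:132073539-132073788 on the plus strand, is shown because it held none of the motifs searched, which was also so for IL12B.
CSF2: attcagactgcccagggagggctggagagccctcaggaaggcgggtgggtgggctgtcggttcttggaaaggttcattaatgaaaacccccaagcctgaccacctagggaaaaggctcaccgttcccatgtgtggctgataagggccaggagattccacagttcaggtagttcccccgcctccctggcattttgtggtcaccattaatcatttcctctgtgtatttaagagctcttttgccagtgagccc

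**Figure D2:**
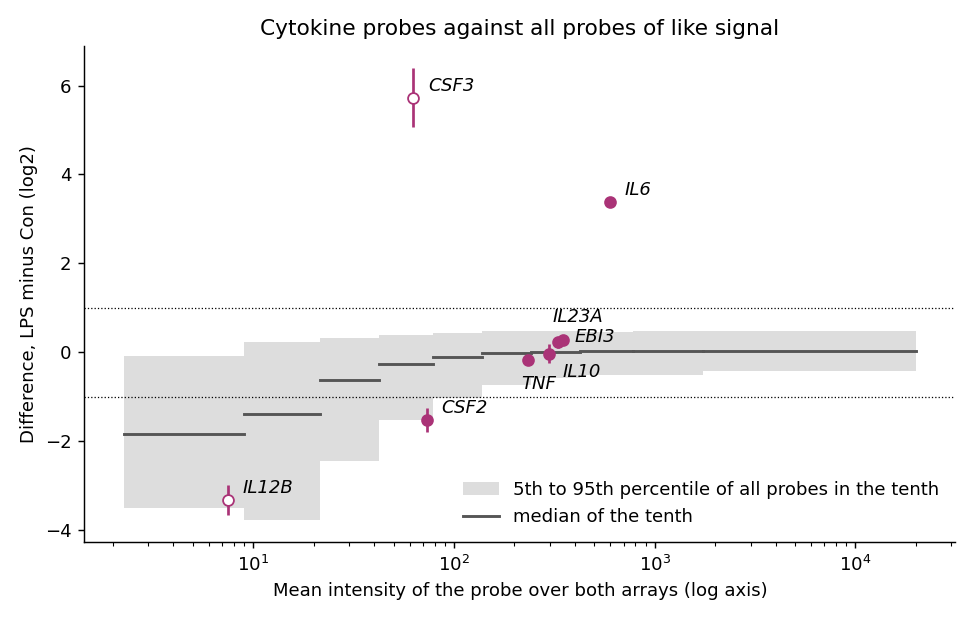
Difference between the arrays (LPS minus Con, log2) against the mean intensity of the probe over both arrays (log axis), for the 8 cytokine probes (purple, bars are the SD over spots, open circles are probes well above background on one array alone). Grey boxes span the 5th to 95th percentile of all probes in each of 10 groups of like signal, the dark lines are their medians and the brightest group is drawn up to 20000. IL6 at 3.38 and CSF3 at 5.73 lie far above the boxes, CSF2 at the lower edge of its box, and the other 5 within theirs.

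Side by side on the same pair of arrays, the CSF3 probe was higher, with a bound of 47.2-fold in the main setting. The CSF2 probe was 2.88-fold lower, a call that was lost with normexp. The difference between these genes was not tested. Every value given here compares single probes between 1 Con and 1 LPS array, and condition cannot be told apart from slide position, since each array had its own place on a shared slide.

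**Figure D3:**
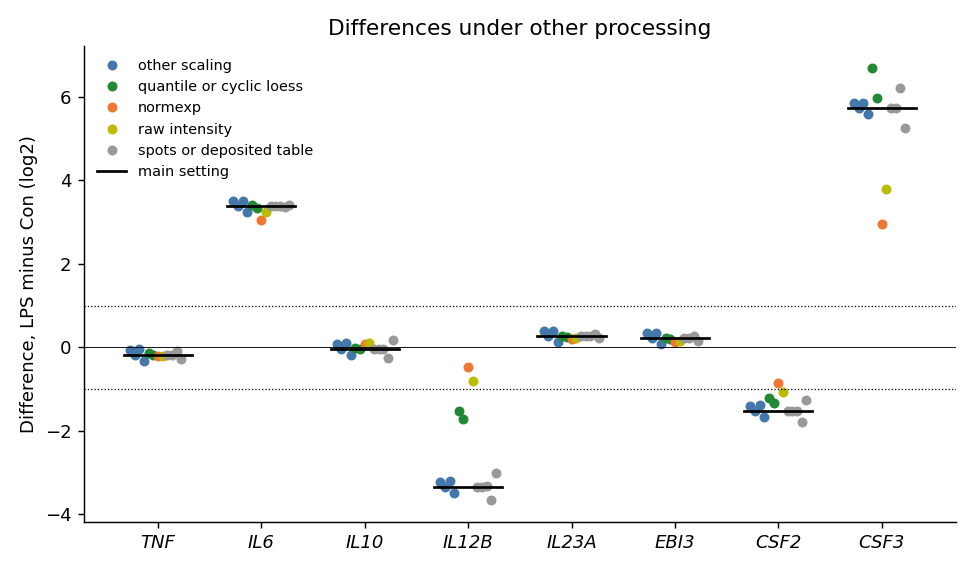
Difference (LPS minus Con, log2) of each cytokine probe under the main setting (black line) and under each alternative that changes the value (points, coloured by kind of alternative), with dotted lines at 2-fold. IL6 stays between 3.06 and 3.51 and CSF3 between 2.96 and 6.70, while IL12B ranges from -3.66 to -0.48 and CSF2 from -1.79 to -0.86.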

How the data were processed

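Total RNA of THP-1 cells was labelled with Cy3 and hybridized to 1 array per condition. The authors deposited scanner files written by Agilent Feature Extraction (version 11.5.1.1), with an intensity for each spot after background subtraction and spatial detrending by that software and no scaling between arrays, together with flags per spot, which are 0 or 1. A second deposited table holds one intensity per probe, with a median of 136 for Con and 137 for LPS, and in it 97.1% of the Con and 96.9% of the LPS values lay within 0.001 (log2) of the mean over spots, so that it is linear, uncentred and unscaled. It holds 5 of the 8 cytokine probes. Control spots and outlier-flagged spots (1.71% on Con, 1.93% on LPS) were left out, log2 intensities were averaged per probe, and each array was then centred on its own 75th percentile. A fold against an array that was not well above background used the higher of its lowest detected signal and the probe's own value. By rule all 8 probes are named and no others. Pathway and cell marker lists were written by gene symbol but went unused, because no table pairs probes with genes. The probes and the lists were chosen with earlier results of these data known. The computation of the calls was checked on simulated intensities, which gives no error rate for the calls reported. Alternatives covered the scaling (50th percentile, detected probes, none, 6 E1A control probes), quantile and cyclic loess normalization and normexp with an offset of 50 on the median intensities (limma 3.58.1, R 4.3.3), the raw intensity, spots, filters and thresholds. The number of arrays limits the precision. Python 3.11.15, numpy 2.4.6, pandas 2.3.3 and matplotlib 3.10.9 were used.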

Additional observations from a re-analysis of the deposited data

How the results depend on the processing

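IL6 kept its direction and its call in every alternative run, as did CSF3, except that requiring detection on both arrays left 1 gene higher (IL6), because CSF3 rests on a bound, and that the deposited value table, which lacks TNF, EBI3 and CSF3, also gave 1. The number of genes lower fell from 2 to 1 under quantile normalization, cyclic loess and raw intensities (CSF2 in each), to 1 for probes detected on both arrays (CSF2) and at 3-fold (IL12B), and to 0 at 4-fold and with normexp, where CSF2 was at -0.86 and IL12B at -0.48 (log2). The cause of these losses was not tested, other than that the stricter thresholds and the requirement of detection leave fewer calls by construction. IL10 was below 0 in 8 and above 0 in 5 of 13 alternatives; the other differences kept their sign. The median over the 8 genes ran from -0.05 with the E1A probes to 0.22 without scaling, and was -0.03 over the 5 genes of the deposited table. The scaling itself moved the median of all probes from -0.13 to -0.28 with the E1A probes and to 0.0026 without scaling. Leaving out either spot of each gene changed no call, with IL12B from -3.66 to -3.01 and CSF2 from -1.79 to -1.26. No paired analysis was possible because Con and LPS have a single array each. Signal over background limits IL12B and CSF3, which were well above background on one array alone.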
